A study of Sus scrofa with 10 samples.

Results

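Expression of IL6, LIF, STAT3, SOCS3, CEBPB and CEBPD, genes of interleukin 6 signalling and its feedback, was examined in aortic valve leaflets of female swine. The genes were taken by symbol, and all 6 had a probe set (a group of short probes that reads 1 transcript) with exactly 1 symbol in the array annotation, out of 6765 genes with such a probe set. They are read by 8 probe sets, 3 of them for CEBPD. The genes were chosen by their values in adult against juvenile RFH leaflets, where all were higher in the adults. The brightest probe set over all arrays stands for a gene, and no filter on low values was applied, so every gene and probe set entered the fit. The 10 arrays comprise 4 from adult Rapacz Familial Hypercholesterolemic (RFH) swine aged 2 years, 3 from juvenile RFH swine aged 3 months and 3 from juvenile wild-type (WT) swine aged 3 months. RFH swine inherit high blood cholesterol. The WT animals are labelled as Rapacz Wisconsin Miniature Swine, so breed label and genotype differ together between the juvenile groups. All animals ate standard chow, and no adult WT group was analysed here, so age and the course of the disease cannot be told apart in the adult comparison. Whether the arrays of a group came from different animals is not said in the labels, so p-values measure the spread between these samples, which may be technical.

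Interleukin 6 is a cytokine that binds its receptor IL6R together with the shared receptor chain gp130, the product of IL6ST. Janus kinases (JAKs) bound to gp130 then phosphorylate STAT3, a transcription factor that moves to the nucleus and switches on target genes. One of these targets is SOCS3, which binds gp130 and the kinases and shuts the signal off, a negative feedback loop. CEBPB and CEBPD are transcription factors of the C/EBP family that can bind the IL6 promoter and that are themselves induced by interleukin 6, and LIF is a cytokine of the same family that also signals through gp130 and STAT3. In a heart valve interstitial cells, endothelial cells and macrophages can all produce interleukin 6. In bulk leaflet RNA, more cells of a type and more RNA per cell cannot be told apart.

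The leaflet label was checked against 5 measured interstitial fibroblast markers, on the log2 scale of the deposited values, which ran from 2.01 to 14.96. Group means of VIM, DCN and LUM lay between 13.67 and 14.45, those of COL1A2 between 8.58 and 9.42 and those of COL3A1 between 6.66 and 7.34, so the last read near the array medians. One library stood apart. The mean of 6 cardiac muscle markers was 10.22 in juvenile RFH replicate 2, against 5.12 and 5.85 in juvenile RFH replicates 1 and 3, 5.29 to 5.52 over the adult RFH arrays and 5.08 to 5.20 over the juvenile WT arrays. Results are therefore also given without that array. The 12 poly-A control probe sets read RNA added during labelling. They averaged 7.66 ± 0.20 on the adult RFH arrays (SD, n = 4), 6.84 ± 0.01 on the juvenile RFH arrays (SD, n = 3) and 7.07 ± 0.06 on the juvenile WT arrays (SD, n = 3). For adult against juvenile RFH the exact two-sided permutation p was 0.0286, the smallest that 4 against 3 arrays allow. For juvenile RFH against juvenile WT the exact two-sided permutation p was 0.1, the smallest that 3 against 3 arrays allow. Signal at the 3' end of control transcripts minus signal at the 5' end, a gap that grows as RNA breaks down, was 2.24 ± 0.45 on the adult RFH arrays (SD, n = 4) and 2.25 ± 0.14 on the juvenile RFH arrays (SD, n = 3) (exact two-sided permutation p = 0.943).

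The first comparison set adult RFH against juvenile RFH leaflets. These values chose the genes, so the differences are given as a description with no test. All 6 genes were higher in adult RFH leaflets, and each adult array lay above each juvenile RFH array for the brightest probe set of all 6. Over all 6765 genes, 16.6% had adult RFH arrays wholly above juvenile RFH arrays, and the count of 6 follows from how the genes were chosen. Their median difference was 1.77 on the log2 scale, against 0.02 over all genes.

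**Figure D1:**
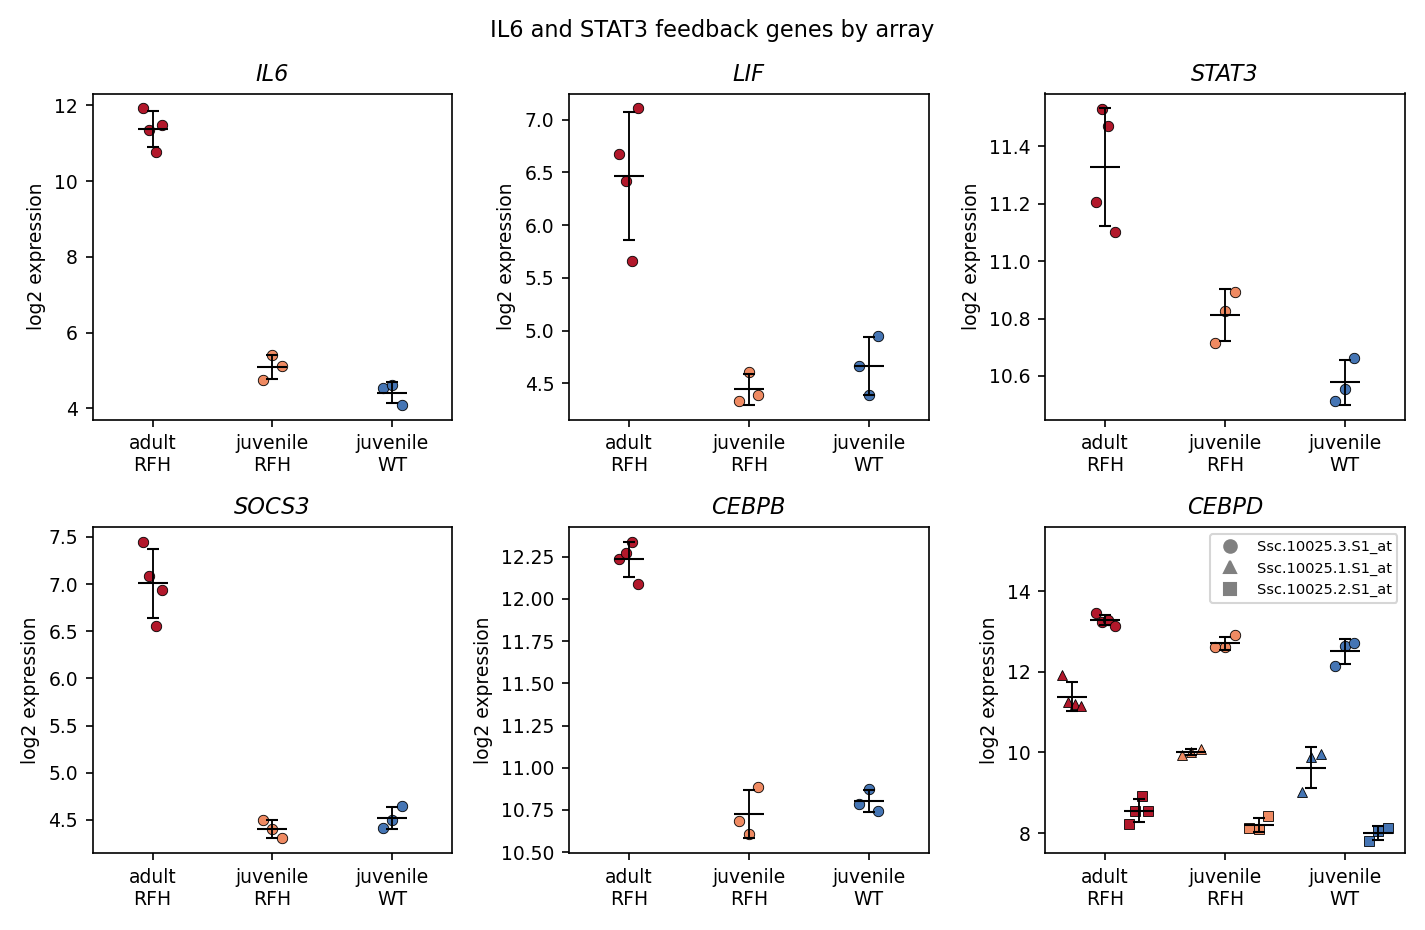
Log2 expression of the 6 genes in adult RFH (n = 4), juvenile RFH (n = 3) and juvenile WT (n = 3) arrays; points are arrays, bars are the mean and SD, and CEBPD is shown for its 3 probe sets. The adult RFH points lie above all juvenile points in every panel except for the dimmest probe set of CEBPD, and the vertical axes differ between panels and do not start at 0.

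Both cytokine genes read low in juvenile leaflets. IL6 (NCBI Gene 399500) read 11.92, 11.35, 10.76 and 11.48 on the log2 scale in adult RFH replicates 1 to 4, against 4.76, 5.41 and 5.11 in juvenile RFH replicates 1 to 3. In juvenile WT replicates 1 to 3 it read 4.55, 4.61 and 4.10. The 3 groups did not overlap, with adult RFH highest and juvenile WT lowest, and the lowest adult array stood 5.35 above the highest juvenile RFH array. The adult RFH minus juvenile RFH difference was 6.28 ± 0.25 (SE), a 77.9-fold difference and rank 1 among the 6765 genes. All 6 juvenile arrays lay below their array medians, which were between 6.96 and 7.03, so how large this fold comes out rests on how the submitters' processing treated background.

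LIF (NCBI Gene 399503) read 6.68, 6.42, 5.66 and 7.11 in adult RFH arrays, against 4.33, 4.61 and 4.39 in juvenile RFH arrays. In juvenile WT arrays it read 4.66, 4.39 and 4.94. Adult RFH was the highest group, and the juvenile groups overlapped. The adult RFH minus juvenile RFH difference was 2.02 ± 0.28 (SE), or 4.06-fold. Like IL6, it read below the array medians in all juvenile arrays, so this fold has the same limit. Unlike IL6, it also read below them in adult RFH replicates 1, 2 and 3.

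STAT3 (NCBI Gene 733648), the transcription factor on which both cytokines converge, had the smallest difference among the brightest probe sets, except without adult RFH replicate 1, where STAT3 differed by 0.55 and CEBPD by 0.51. It read 11.21, 11.53, 11.47 and 11.10 in adult RFH arrays, against 10.72, 10.83 and 10.89 in juvenile RFH arrays. In juvenile WT arrays it read 10.51, 10.56 and 10.66, so the 3 groups again did not overlap. The adult RFH minus juvenile RFH difference was 0.51 ± 0.12 (SE), or 1.43-fold, and only 0.21 parted the lowest adult from the highest juvenile RFH array. A probe set reads mRNA and says nothing of the phosphorylation through which STAT3 is activated.

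SOCS3 (NCBI Gene 493186), the feedback inhibitor, read 7.45, 7.08, 6.56 and 6.94 in adult RFH arrays, against 4.50, 4.40 and 4.30 in juvenile RFH arrays. In juvenile WT arrays it read 4.42, 4.50 and 4.64, within reach of the juvenile RFH values. The difference between adult and juvenile RFH was 2.61 ± 0.17 (SE), or 6.09-fold, from juvenile levels that again lay below the array medians. In adult RFH replicates 3 and 4 SOCS3 also read below them.

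The 2 C/EBP genes already read high in juvenile leaflets. CEBPB (NCBI Gene 397360) read 12.23, 12.27, 12.34 and 12.09 in adult RFH arrays, against 10.69, 10.61 and 10.89 in juvenile RFH arrays. In juvenile WT arrays it read 10.79, 10.87 and 10.74, so the juvenile groups overlapped. The adult RFH minus juvenile RFH difference was 1.51 ± 0.10 (SE), or 2.84-fold, and the 4 adult arrays spanned only 0.25.

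For CEBPD (NCBI Gene 100153946) the size of the difference depended on the probe set. The brightest read 13.47, 13.24, 13.29 and 13.15 in adult RFH arrays, against 12.61, 12.63 and 12.91 in juvenile RFH arrays. It read 12.16, 12.66 and 12.72 in juvenile WT arrays, and its adult RFH minus juvenile RFH difference was 0.57 ± 0.15 (SE), or 1.49-fold. The next probe set in brightness read 11.92, 11.26, 11.20 and 11.17 in adult RFH arrays, against 9.95, 10.01 and 10.10 in juvenile RFH arrays. Its difference was 1.37 ± 0.24 (SE), or 2.58-fold, and its groups did not overlap either. The dimmest read 8.23, 8.55, 8.92 and 8.54 in adult RFH arrays, against 8.12, 8.09 and 8.41 in juvenile RFH arrays. These groups overlapped, and the difference was 0.35 ± 0.16 (SE), or 1.28-fold. All 3 probe sets put adult RFH higher, and the mean of the 3 gave 0.76.

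**Figure D2:**
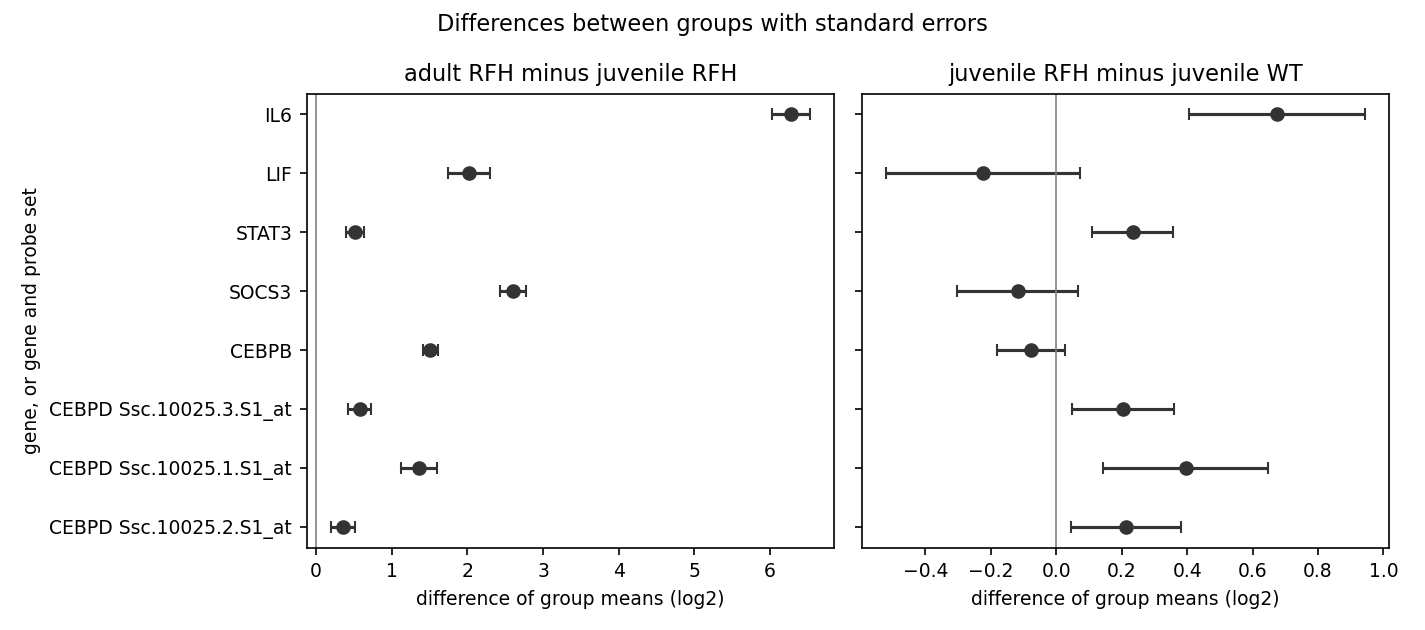
Differences of group means on the log2 scale with standard errors for the 8 probe sets, adult RFH minus juvenile RFH on the left and juvenile RFH minus juvenile WT on the right; the horizontal scales differ, and the 3 CEBPD probe sets run from the brightest to the dimmest. On the left IL6 lies at 6.28 and STAT3 at 0.51, and on the right the values run from -0.22 for LIF to 0.68 for IL6.

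Without juvenile RFH replicate 2, the array with high cardiac muscle markers, the adult RFH minus juvenile RFH differences were 6.44 for IL6, 2.11 for LIF and 0.52 for STAT3. They were 2.60 for SOCS3, 1.45 for CEBPB and 0.53 for CEBPD. Leaving out each of the 10 arrays in turn gave 6.10 to 6.49 for IL6, 1.81 to 2.29 for LIF and 0.45 to 0.59 for STAT3. The ranges were 2.46 to 2.76 for SOCS3, 1.45 to 1.59 for CEBPB and 0.51 to 0.67 for CEBPD.

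Some markers of other cells, and the poly-A controls given above, moved with this comparison, where 11.4% of all genes rose and 7.85% fell. In lists this short, a count of 1 cannot be told from those shares. Of 7 macrophage markers 3 rose and none fell by limma's adjusted p, and the list's mean per array ran from 9.78 to 10.28 in adult RFH, against 9.38 to 9.47 in juvenile RFH arrays. Of 6 endothelial markers 2 rose, with list means of 8.71 to 9.75 in adult RFH and 8.59 to 8.94 in juvenile RFH arrays. One of 4 neutrophil markers rose, S100A9, with list means of 5.14 to 6.5 in adult RFH and 5.01 to 5.17 in juvenile RFH arrays. One of 2 mast cell markers rose, with list means of 7.23 to 8.66 in adult RFH and 6.65 to 7.12 in juvenile RFH arrays. T cell markers had list means of 5.39 to 6.86 in adult RFH and 5.47 to 5.59 in juvenile RFH arrays, with none of 6 called. Of 4 erythroid markers 3 fell, with list means of 6.26 to 7.07 in adult RFH and 7.40 to 8.43 in juvenile RFH arrays. The single B cell marker and the 2 adipocyte markers were not called, and 1 of 5 interstitial and 1 of 4 smooth muscle markers fell. The part of these cells in the values of the 6 genes was not tested, and the scale has no zero, so that no marker can be called absent.

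Among the adult RFH arrays the genes did not vary alike. Replicate 3 was the lowest adult array for 3 of the 6 genes, IL6, LIF and SOCS3, and replicate 1 the highest for IL6, SOCS3 and CEBPD. CEBPB was instead highest in replicate 3, and STAT3 in replicate 2. The range over the 4 arrays was 1.45 for LIF, 1.16 for IL6 and 0.89 for SOCS3, against 0.43 for STAT3, 0.32 for CEBPD and 0.25 for CEBPB. Replicate 3 also had the lowest endothelial list mean, 8.71 against 9.75, 9.72 and 9.51 in replicates 1, 2 and 4. It had the lowest mast cell list mean, 7.23 against 8.39, 7.65 and 8.66, and the highest 3' to 5' control difference, 2.84 against 1.75, 2.25 and 2.12. Macrophage list means parted the arrays differently, at 10.16, 10.28, 9.78 and 9.78 in replicates 1 to 4. With 4 arrays these orders are a description, and the part of cell content or RNA quality in them was not tested. Even in replicate 3 IL6, LIF and SOCS3 were above all juvenile arrays.

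**Figure D3:**
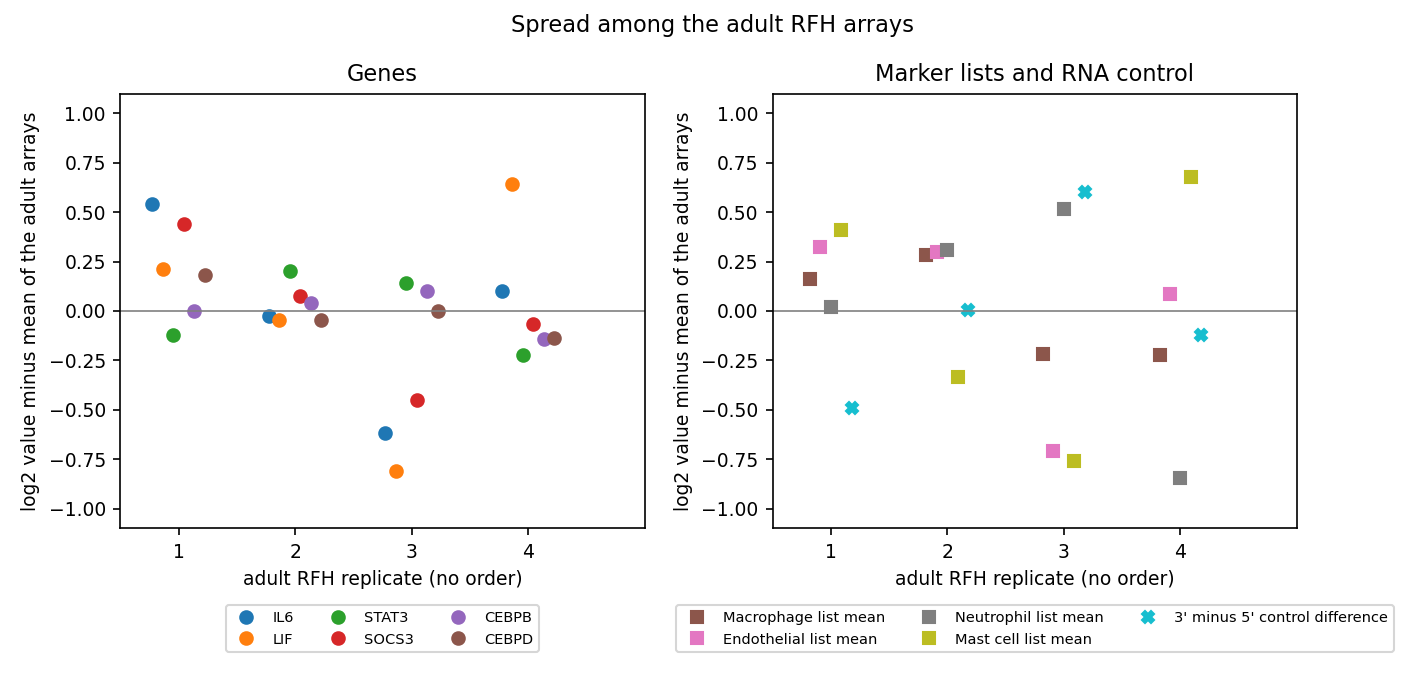
Log2 values of the 4 adult RFH arrays minus their mean, for the 6 genes (left) and for 4 marker list means and the 3' minus 5' control difference (right); replicate numbers carry no order. IL6, LIF and SOCS3 are lowest in replicate 3, where the endothelial and mast cell lists are also lowest. The neutrophil list and the control difference are highest there, the latter at 2.84. STAT3, CEBPB and CEBPD stay within 0.25 of their means.

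The second comparison set juvenile RFH against juvenile WT leaflets, at one age, and here the 6 genes were tested. The juvenile RFH arrays also served in the choice of the genes. A choice of genes low in juvenile RFH can push these differences down, so the tests are not free of that choice. None of the 6 passed (0 at limma's adjusted p under 0.05, where 0.133% of all genes passed). Only IL6 had an unadjusted p under 0.05, as did 15.1% of all genes. The fit shares 1 estimate of spread over the 3 groups. Their median SDs were 0.19 for adult RFH, 0.13 for juvenile RFH and 0.09 for juvenile WT arrays. In the other settings, all arrays kept, the limma adjusted p of IL6 ran from 0.0744 to 0.414. Juvenile RFH arrays lay wholly above juvenile WT arrays for 2 genes, IL6 and STAT3, a pattern that 26.3% of all genes had, so the share of the 6 is near the background. Their median difference was 0.06, against 0.07 over all genes.

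IL6 averaged 5.09 ± 0.33 over the juvenile RFH arrays and 4.42 ± 0.28 over the juvenile WT arrays (SD, n = 3 each), a difference of 0.68 ± 0.27 (SE) with a 95% interval of 0.08 to 1.27 (limma adjusted p = 0.332). STAT3 averaged 10.81 ± 0.09 over the juvenile RFH arrays and 10.58 ± 0.08 over the juvenile WT arrays (SD, n = 3 each), a difference of 0.23 ± 0.12 (SE, interval -0.04 to 0.51, limma adjusted p = 0.473). Both also had the order adult RFH, juvenile RFH, juvenile WT without overlap, but its adult step follows from how the genes were chosen. The share of all genes with this order was not counted, and 26.3% had its juvenile step. Some marker lists were higher on the juvenile RFH arrays, as IL6 and STAT3 were. The poly-A controls given above were lower there, at 6.84 against 7.07 on the juvenile WT arrays. List means of macrophage markers were 9.38 to 9.47 over the juvenile RFH arrays and 9.01 to 9.14 over the juvenile WT arrays, and those of endothelial markers were 8.59 to 8.94 over the juvenile RFH arrays and 8.09 to 8.56 over the juvenile WT arrays. Erythroid list means were 7.40 to 8.43 over the juvenile RFH arrays and 6.73 to 7.17 over the juvenile WT arrays. T cell list means were 5.47 to 5.59 over the juvenile RFH arrays and 5.15 to 5.41 over the juvenile WT arrays, and neutrophil list means were 5.01 to 5.17 over the juvenile RFH arrays and 4.78 to 4.94 over the juvenile WT arrays. The interstitial list was lower, at 11.69 to 11.83 over the juvenile RFH arrays and 11.86 to 11.90 over the juvenile WT arrays. These 6 lists did not overlap between the juvenile groups, while the other 5 did. None of these markers was called in this comparison. The part of the markers and controls in the IL6 and STAT3 values was not tested.

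The other 4 genes had overlapping juvenile groups. SOCS3 differed by -0.12 (interval -0.53 to 0.29), CEBPB by -0.08 (interval -0.31 to 0.15) and LIF by -0.22 (interval -0.88 to 0.43), each with a limma adjusted p of 0.819 or more. CEBPD differed by 0.20 (interval -0.14 to 0.55, limma adjusted p = 0.645). Juvenile WT replicate 1 was the lowest of the juvenile arrays for all 3 CEBPD probe sets, at 12.16, 9.03 and 7.80, and without it the CEBPD difference was 0.03. Without juvenile RFH replicate 2 the juvenile RFH minus juvenile WT differences were 0.52 for IL6, 0.23 for STAT3 and 0.25 for CEBPD. They were -0.12 for SOCS3, -0.02 for CEBPB and -0.31 for LIF, and none passed the threshold. These intervals do not show that the genes were alike in the juvenile groups. The 2 comparisons share the juvenile RFH arrays, so their values stand side by side and were not related to each other.

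Other genes of the pathway were read from 9 lists of 116 genes in all, the 6 genes left out, of which 66 had a probe set with exactly 1 symbol. In adult against juvenile RFH leaflets 24 of the 66 rose and 4 fell, 42.4% in all, where 19.3% of all genes passed in either direction, 11.4% upward and 7.85% downward. Their median difference was 0.30, against 0.02 over all genes. The lists were drawn up with earlier results of these data known, so the counts describe these genes and are no independent support. The count of genes that rose ran from 16, without juvenile RFH replicate 3, to 28, without adult RFH replicate 3. The 4 falls became 2 without adult RFH replicate 1, 2 or 4 or juvenile WT replicate 2 or 3, and 0 without juvenile RFH replicate 2 or 3. In juvenile RFH against juvenile WT leaflets 0 of the 66 passed limma's adjusted p, where 0.133% of all genes did. An unadjusted p under 0.05 was found for 13, where 15.1% of all genes had one. Both counts are near the background. Without adult RFH replicate 2, 1 of the 66 passed, IL4R. The genes with the smallest p in their lists there, none called, were the receptor gene IL27RA (0.43, limma adjusted p = 0.137), STAT6 (-0.92, 0.206), the phosphatase gene PTPN2 (0.46, 0.300) and DDIT3 (-0.35, 0.376). In the other lists they were TNFRSF1A, a TNF receptor gene (0.44, limma adjusted p = 0.0965), the complement gene C3 (0.45, 0.347), NFKBIB (0.23, 0.547) and ZFP36 (-0.45, 0.499).

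**Figure D4:**
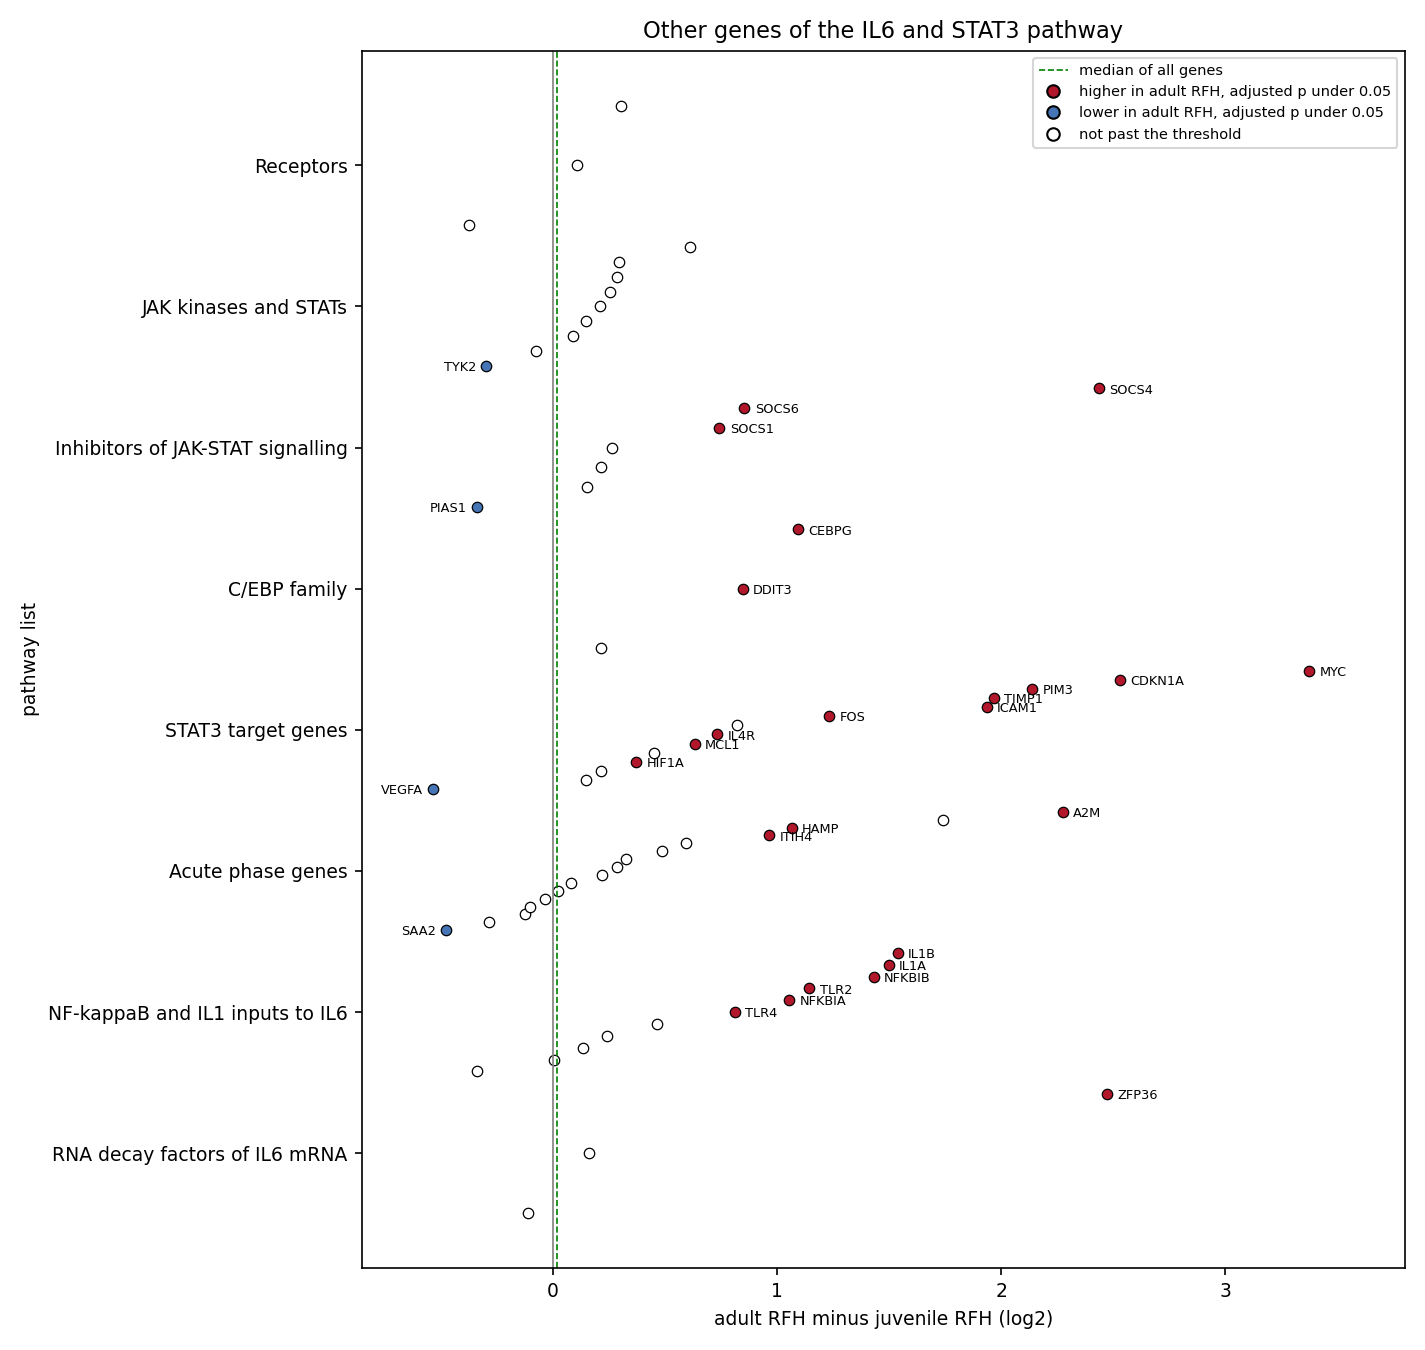
Adult RFH minus juvenile RFH difference on the log2 scale for the 66 measured pathway genes, 1 point per gene in each of 8 lists; filled points passed limma's adjusted p of 0.05 and carry their symbol, and the dashed line is the median of all genes. The list of STAT3 target genes holds 9 genes that rose and 1 that fell, and no called point lies among the receptors.

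Of the receptors and kinases upstream of STAT3, only TYK2 passed the test. None of the 3 measured receptors passed (0 at an unadjusted p under 0.05 as well, where 34.5% of all genes were), and IL6R, the ligand-binding receptor of interleukin 6, averaged 5.20 ± 0.12 on the adult RFH arrays (SD, n = 4) and 4.90 ± 0.02 on the juvenile RFH arrays (SD, n = 3) (limma adjusted p = 0.174). The shared chain gene IL6ST, the receptor genes LIFR and OSMR and the 7 listed ligands other than IL6 and LIF were not analysed here, for want of a probe set with exactly 1 symbol. Of 9 kinase and STAT genes 1 fell and none rose, counts near the shares over all genes, where 7.85% fell and 11.4% rose. JAK1, the main kinase of gp130, differed by 0.21 ± 0.09 (SE, limma adjusted p = 0.128) and JAK2 by 0.09 ± 0.24 (SE, limma adjusted p = 0.835). TYK2, another kinase of the family, fell by 0.30 ± 0.08 (SE, limma adjusted p = 0.0344), but its other 3 probe sets differed by 0.03, 0.08 and -0.09 and did not pass. The TYK2 call ended without adult RFH replicate 1 (0.0531) or 4 (0.067), without juvenile RFH replicate 1 (0.0833), 2 (0.0941) or 3 (0.0943) and without juvenile WT replicate 2 (0.0573) or 3 (0.0526).

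Of 7 inhibitors of JAK-STAT signalling 3 rose and 1 fell, where 11.4% of all genes rose and 7.85% fell. SOCS4, a relative of SOCS3 known for acting on growth factor receptors, rose by 2.44 ± 0.28 (SE) on the log2 scale, to 6.96 ± 0.63 on the adult RFH arrays (SD, n = 4), against 4.53 ± 0.22 on the juvenile RFH arrays (SD, n = 3), a level below the array medians (limma adjusted p = 0.000427). SOCS6, another member of the family, rose by 0.85 ± 0.12 (SE, limma adjusted p = 0.00174), with 0.26 and no call in its other probe set. SOCS1, which blocks JAKs directly, rose by 0.74 ± 0.15 (SE, limma adjusted p = 0.00784), with -0.03 and 0.48 and no call in its other 2 probe sets. The mean of the 3 SOCS1 probe sets differed by 0.40 and was not called (limma adjusted p = 0.0594). PIAS1, which encodes a SUMO ligase, fell by 0.34 ± 0.08 (SE, limma adjusted p = 0.0169), though leaving out juvenile RFH replicate 2 (0.06) or 3 (0.056) ended that call. PTPN2 differed by 0.22 in its brightest probe set and was not called (limma adjusted p = 0.392). Its other probe set rose by 0.65 (limma adjusted p = 0.0353). SOCS2 and CISH were not analysed here.

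In the C/EBP family 2 of 3 other genes rose, where 11.4% of all genes did. CEBPG, a partner that lacks an activation domain, rose by 1.09 ± 0.21 (SE, limma adjusted p = 0.00635), and DDIT3, the stress-induced member also called CHOP, rose by 0.85 ± 0.14 (SE, limma adjusted p = 0.00381). CEBPA, a factor of adipocyte and myeloid differentiation, differed by 0.22 ± 0.08 (SE, limma adjusted p = 0.0928) in its brightest probe set, while its other probe set rose by 1.83 (limma adjusted p = 0.00331).

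Genes listed as STAT3 targets had 9 of 14 members up and 1 down, with a median difference of 0.78. Over all genes 11.4% rose and 7.85% fell. MYC, a transcription factor of cell growth, averaged 11.49 ± 0.31 on the adult RFH arrays (SD, n = 4) and 8.12 ± 0.29 on the juvenile RFH arrays (SD, n = 3) and rose by 3.37 ± 0.19 (SE, limma adjusted p = 4.24e-06). CDKN1A, which encodes the cell cycle inhibitor p21, rose by 2.53 ± 0.18 (SE, limma adjusted p = 2.13e-05). The probe sets of VEGFA, the vascular endothelial growth factor, disagreed: the brightest fell by 0.53 ± 0.14 (SE, limma adjusted p = 0.0275), 2 others rose by 1.23 and 0.98 and passed, and the mean of all 4 was higher in adult RFH by 0.38. The fall of the brightest was not called without adult RFH replicate 2 (0.0612) or juvenile RFH replicate 2 (0.0828) or 3 (0.112). These genes also answer to other signals, and JUNB, BCL3 and PIM1 were not analysed here.

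Acute phase genes, which interleukin 6 induces in liver, had 3 of 16 members up and 1 down, a share near that of all genes. A2M, a protease inhibitor, rose by 2.27 ± 0.28 (SE, limma adjusted p = 0.000662) in its brightest probe set, and its other 2 probe sets differed by -0.12 and 0.24 and did not pass. HAMP, which encodes the iron hormone hepcidin, rose by 1.07 ± 0.26 (SE, limma adjusted p = 0.0191), though leaving out juvenile RFH replicate 1 (0.069) or 3 (0.0807) ended that call. SAA2, a serum amyloid A gene, fell by 0.48 ± 0.14 (SE, limma adjusted p = 0.0421) with overlapping groups, and its other probe set differed by 0.13 without a call. That call held without adult RFH replicate 3 or juvenile RFH replicate 1, and leaving out any other array gave an adjusted p of 0.0603 to 0.145.

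Of 11 genes of the NF-kappaB pathway and of interleukin 1, which induce IL6 transcription, 6 rose and none fell, with a median difference of 0.81. The shares over all genes were 11.4% upward and 7.85% downward. IL1B, a cytokine of activated macrophages, averaged 9.49 ± 0.87 on the adult RFH arrays (SD, n = 4) and 7.95 ± 0.05 on the juvenile RFH arrays (SD, n = 3) and rose by 1.54 ± 0.36 (SE, limma adjusted p = 0.0166). Its other probe set rose by 1.48, and the call was lost without juvenile RFH replicate 1 (0.0571) or 3 (0.0542). NFKBIB, an inhibitor that holds NF-kappaB in the cytoplasm, rose by 1.43 ± 0.13 (SE, limma adjusted p = 0.000105), with 0.23 and no call in its other probe set. TLR2, a receptor for bacterial lipoproteins, rose by 1.14 ± 0.16 (SE, limma adjusted p = 0.0014). NFKBIA, the inhibitor induced by NF-kappaB itself, rose by 1.06 ± 0.28 (SE, limma adjusted p = 0.0259). That call was lost without adult RFH replicate 4 (0.051) or juvenile RFH replicate 1 (0.0973), 2 (0.0545) or 3 (0.0702), with only the 2 groups in the fit (0.0685) and with values below 4 raised to 4 (0.065). TNF, another inducer of IL6, averaged 6.12 ± 0.05 on the adult RFH arrays (SD, n = 4) and 5.99 ± 0.35 on the juvenile RFH arrays (SD, n = 3) and was not called (limma adjusted p = 0.572). Of 3 measured RNA decay factors ZFP36 rose, the gene of tristetraprolin, which destabilises cytokine mRNAs, by 2.47 ± 0.24 (SE, limma adjusted p = 0.000132).

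The genes nearest to each of the 6 were found by the root mean square difference over the 10 arrays between log2 values centred on each gene's own mean. This measure follows the groups as much as the arrays, and all genes compared share the same 10 libraries. Nearest to IL6 were HSPA6, a heat-inducible HSP70 chaperone, at 1.17, NR4A3, an orphan nuclear receptor, at 1.23 and CXCL8, a neutrophil chemokine, at 1.27, where the median over all other genes was 3.25. The IL6 difference ranked 1 among all genes, so none of the 3 could match its size. CXCL8 had means of 9.35 ± 1.29 over the adult RFH arrays (SD, n = 4), 5.35 ± 0.34 over the juvenile RFH arrays (SD, n = 3) and 4.62 ± 0.04 over the juvenile WT arrays (SD, n = 3). Nearest to LIF were AREG, an EGF receptor ligand, at 0.27, and the immediate early genes IER2 and IER5, both at 0.32. AREG had means of 6.94 ± 0.49 over the adult RFH arrays (SD, n = 4), 4.86 ± 0.28 over the juvenile RFH arrays (SD, n = 3) and 5.43 ± 0.11 over the juvenile WT arrays (SD, n = 3).

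SOCS3 was matched by IER3, an immediate early gene, and by HBEGF, another EGF receptor ligand, both at 0.20, and by LGALS3, which encodes galectin-3, at 0.28. CEBPB lay nearest to RASSF1, a Ras-associated tumour suppressor, at 0.12, and to BAG3, a co-chaperone of HSP70, and NAMPT, an enzyme of NAD synthesis, both at 0.15. STAT3 had the closest neighbours, GAR1, a component of small nucleolar RNA particles, GLMP, a lysosomal membrane protein, and HSPA9, the mitochondrial HSP70, at 0.079, 0.079 and 0.080. CEBPD lay nearest to ASL, the enzyme argininosuccinate lyase, at 0.13, UBE2D3, a ubiquitin-conjugating enzyme, at 0.14, and C1S, a complement protease, at 0.15. The medians over all other genes were 1.25 for SOCS3, 0.72 for CEBPB, 0.37 for STAT3 and 0.40 for CEBPD, so genes that differ little between groups had small distances throughout.

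**Figure D5:**
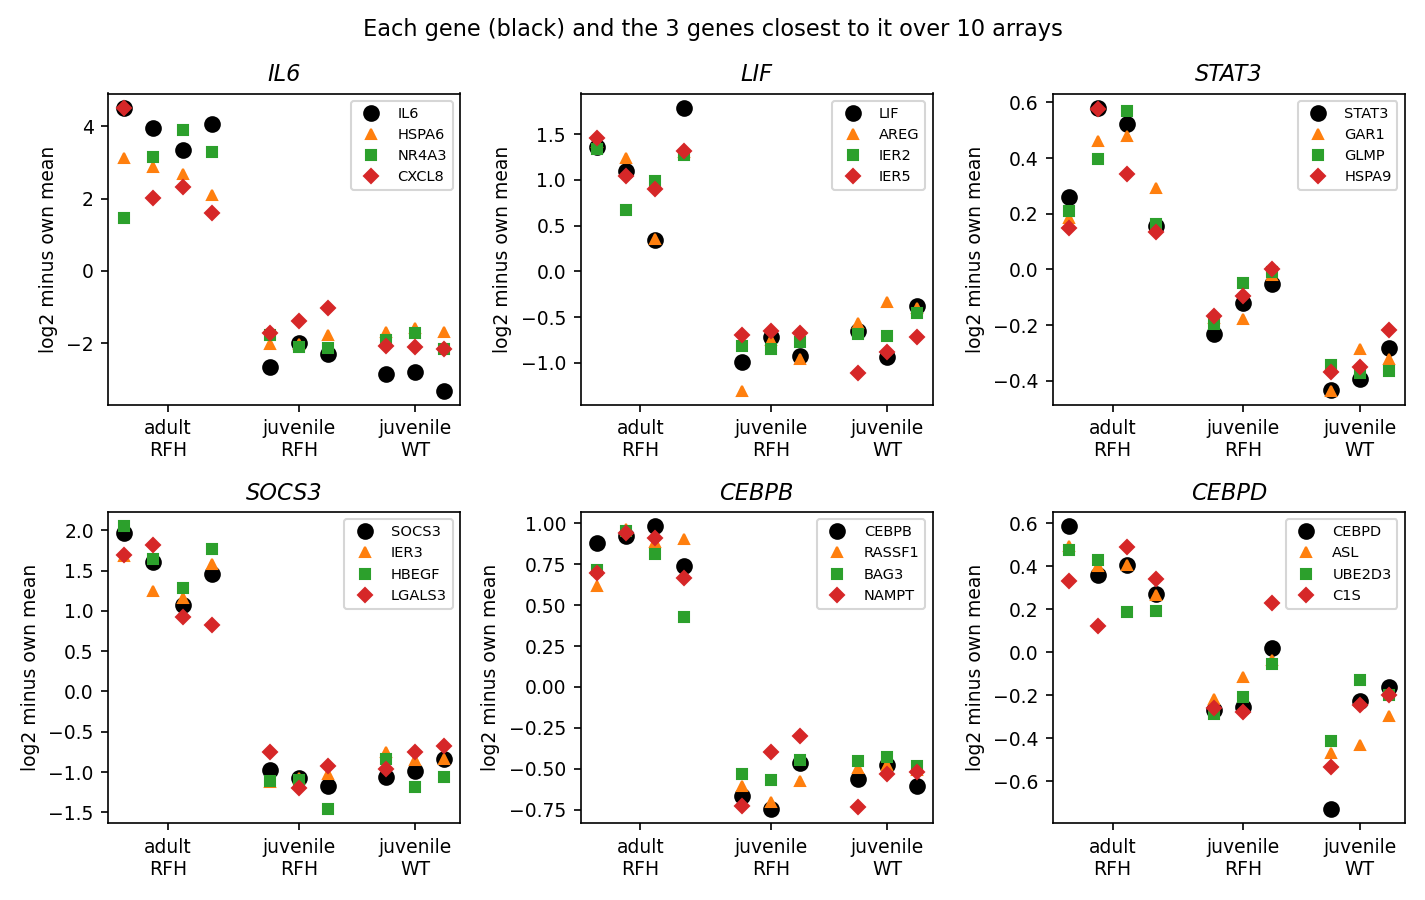
Log2 values minus each gene's own mean in adult RFH (n = 4), juvenile RFH (n = 3) and juvenile WT (n = 3) arrays, for the 6 genes (black circles) and the 3 genes nearest to each; points within a group are replicates in the order of their numbers, and the vertical axes differ. For LIF, AREG shares the low adult RFH replicate 3. The separation of IL6 between adult and juvenile RFH means, 6.28, is the largest of all genes, so its 3 neighbours lie closer together.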

How the data were processed

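Total RNA of leaflets was hybridised to Affymetrix porcine arrays. The table that the authors deposited holds log2 values for 24123 probe sets on each array, a unit judged from the range of the values. The submitters' processing notes name R 2.15.2. How the arrays were background-corrected, normalized and summarised is not given in the sources used here. The number of arrays limits the precision.

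After 124 control probe sets were left out, limma 3.58.1 in R 4.3.3 fitted 3 group means to 23999 probe sets and 10 arrays. The fit used eBayes without trend (7 residual and 3.57 prior degrees of freedom, two-sided, Benjamini-Hochberg adjustment over all probe sets). It had first been tested on simulated data with 1 spread per probe set shared by all groups, so unequal spreads were not covered. "Rose" and "fell" mean an adjusted p under 0.05. Of the probe sets 10069 carry 1 symbol, 198 several and 13732 none.

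The 6 genes and all lists were chosen with earlier results of these data known. Named were the 6 genes, per pathway list and comparison up to 2 called genes in each direction, those lowest in p (or, with no call in a list, its gene lowest in p), a set of receptors, kinases, inhibitors and factors fixed by name where measured, and the 3 nearest genes of each of the 6. Alternatives were other scalings, filters, variance models, array weights, fits on only the groups compared, a replicate block, a floor of 4, averaging the probe sets of a gene, and each array left out in turn.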

Additional observations from a re-analysis of the deposited data

Results flagged for a closer look

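Of 36 genes or probe sets checked for an adult RFH array far from the other 3, 2 stood out, both in adult RFH replicate 1, and chance marks about 5% of such groups. The second brightest CEBPD probe set read 11.92 in adult RFH replicate 1, against 11.26 in the nearest and 11.17 in the farthest adult array. Without that array its adult RFH minus juvenile RFH difference was 1.19 in place of 1.37, and the other 2 CEBPD probe sets did not show such a gap. IL1B read 10.78 in adult RFH replicate 1, against 9.17 in the nearest and 8.89 in the farthest adult array, and without that array its difference was 1.11 in place of 1.54.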

How the results depend on the processing

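Every adult RFH minus juvenile RFH difference of the 6 genes kept its sign, and no juvenile RFH minus juvenile WT test of them passed, in all settings run and with each array left out. LIF and SOCS3 had no value where probe sets below the median were left out. CEBPD gave 0.76 with the mean of its probe sets. JAK2 turned negative with array weights (-0.068) and with the mean of its probe sets (-0.076), and ranged from -0.14 to 0.29 with each array left out. VEGFA turned to 0.38 with the mean of its probe sets (limma adjusted p = 0.0383). The causes of these changes were not tested.

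In adult against juvenile RFH, 4 pathway genes fell, against 2 with arrays centred on their medians, 1 with only the 2 groups in the fit, 1 with the mean of probe sets, and 0 to 4 with each array left out. Over all probe sets 1927 were higher and 2098 lower, against 1159 and 1149 with only the 2 groups in the fit. With each array left out, 1052 (without juvenile RFH replicate 1) to 2382 were higher and 1079 (without juvenile RFH replicate 3) to 2583 lower. Of called probe sets 47.9% were higher as deposited and 53.2% after cyclic loess. Of 18 named pathway genes called, 11 passed whichever array was left out. Calls were also lost for TYK2 and SAA2 in 5 settings each, NFKBIA in 3, VEGFA and HAMP in 2 each, and IL1B and SOCS1 in 1 each, and CEBPA gained one in 2.

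In juvenile RFH against juvenile WT, 0 pathway genes were called, against 6 higher with only the 2 groups in the fit (IL27RA, JAK3, IL4R, TNFRSF1A, SERPINA1 and IL1B), and 4 higher and 2 lower with array weights (IL27RA, PTPN2, IL4R and TNFRSF1A higher, STAT6 and MYC lower). With each array left out 0 to 1 were higher. Over all probe sets 12 were higher and 16 lower. The counts were 455 and 417 with only the 2 groups in the fit, 557 and 614 with array weights, 3 and 3 with probe sets below the median left out, and 3 and 7 with a floor of 4. With each array left out they were 0 to 32 higher and 2 to 39 lower, lowest without juvenile RFH replicate 3 and highest without adult RFH replicate 2.

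Same-numbered arrays had correlations of deviations from -0.16 to 0.19, against -0.20 to 0.19 for other pairs of arrays. The replicate numbers thus gave no sign of a pairing, which so few arrays cannot exclude. With the replicate block 22 pathway genes rose and 2 fell in adult RFH, 5 probe sets were higher in juvenile RFH than juvenile WT, and the IL6 difference between juvenile groups stayed 0.68 (limma adjusted p = 0.349). It ended the calls of TYK2 (0.117), SAA2 (0.0552) and NFKBIA (0.0738), and no call of the 6 genes changed.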
